A study of Mus musculus with 4 samples.

Results

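Kinesin and dynein motor genes were followed in B16F10 cells, a mouse melanoma line of C57BL/6 origin, after knockdown of lamin A/C. Members were the genes whose symbol in the deposited count matrix begins with Kif and a digit, with Dync or with Dynl, which gave 56 of 24421 symbols, 40 of them kinesin and 16 dynein symbols. Groups of 2 libraries each were compared. Cells of the shControl group had been transduced with a lentiviral control vector, which the labels call a control shRNA and the study's reagent list an empty vector, and cells of the shLmna group with a lentiviral vector for a short hairpin RNA against Lmna. Both groups were selected in puromycin and grown in the same serum-supplemented medium. Cells were selected after transduction without a stated cloning step. No source used here says that same-group libraries are separate cultures, so p-values measure only the spread between these libraries, which may be technical. If the control held no hairpin, an effect of carrying one cannot be told apart from that of losing lamin A/C.

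Kinesins and cytoplasmic dynein are motors that use ATP to move along microtubules. Most kinesins walk towards the plus end and carry vesicles, organelles and RNA outwards, whereas dynein 1 walks towards the minus end and also positions the nucleus and the spindle. A group of mitotic kinesins slides, crosslinks or depolymerizes spindle microtubules, and their transcripts are known to peak in G2 and mitosis in dividing cells. In melanocytes kinesin and dynein also move pigment granules along microtubules.

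RNA was profiled by bulk MARS-seq, which counts the 3′ ends of transcripts. Library totals ranged from 2494880 to 3808843 counts. Levels are CPM, counts scaled to a common library size with TMM factors. Lmna stood at 875 and 719 CPM in shControl and at 131 CPM in both shLmna libraries, so the targeted transcript went with the labels. Of 7 melanocyte markers, 6 exceeded 100 counts in every library, and Tyr, the gene of tyrosinase, had at most 7. Among 16 markers of fibroblasts, endothelium, epithelium and immune cells, 9 had no count, and the highest count was 16, for Krt8 and Col1a2. Those 16 markers summed to 44 and 42 counts in shControl and to 7 and 25 in shLmna, and their part in the results was not tested. A fold change is shLmna against shControl on the log2 scale. Tests are edgeR quasi-likelihood tests, with Benjamini-Hochberg adjustment over the 9150 genes tested.

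Of the 56 members, 32 passed the filter on low counts and were tested, 14 had counts but stayed under the filter, and 10 had no count in any library. An adjusted p under 0.05 was found for 4 of the 32, with Kif16b, Kif18b and Kif21a lower and Dync1li1 higher in shLmna. In bulk RNA, fewer cells that express a gene and less of its RNA per cell cannot be told apart. The 4 genes are 12.5% of the tested members, beside 15.2% of all tested genes. The members passed the adjusted test as lower in 9.38% of cases (9.74% of all tested genes) and as higher in 3.12% (5.48% of all). The study tested with DESeq2 and also asked for a log2 fold change over 1 in size and a mean normalized count over 5. With these limits put on the edgeR values, Kif16b was called lower and Dync1li1 higher, 6.25% of the tested members beside 7.64% of all tested genes. Each is 3.12% of the tested members, beside 5.88% of all genes called lower and 1.76% called higher. An unadjusted p under 0.05 was found for 8 members, 25%, beside 30.1% of all. In 14 members (43.8%) the libraries of both groups did not overlap, beside 60.1% of all tested genes. Apart from the 1 gene called higher by the 3 limits, the share of members was below that of all tested genes in each of these counts. Fold changes ranged from -1.43 to 1.46 with a median of -0.12, beside a median of -0.00107 over all tested genes, and 25 of the 32 were under 0.5 in size. With DESeq2, the method of the study, run here on the raw counts in place of edgeR, 0 members passed at an adjusted p under 0.05. None was therefore called by the 3 limits, and 3 had an unadjusted DESeq2 p under 0.05. The p-values of the authors' own comparison were not used, so their calls on the members were not checked. DESeq2 applied its own filter in place of edgeR's and gave an adjusted p to 10184 genes, 35 members among them, and 7.95% of those genes passed.

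**Figure D1:**
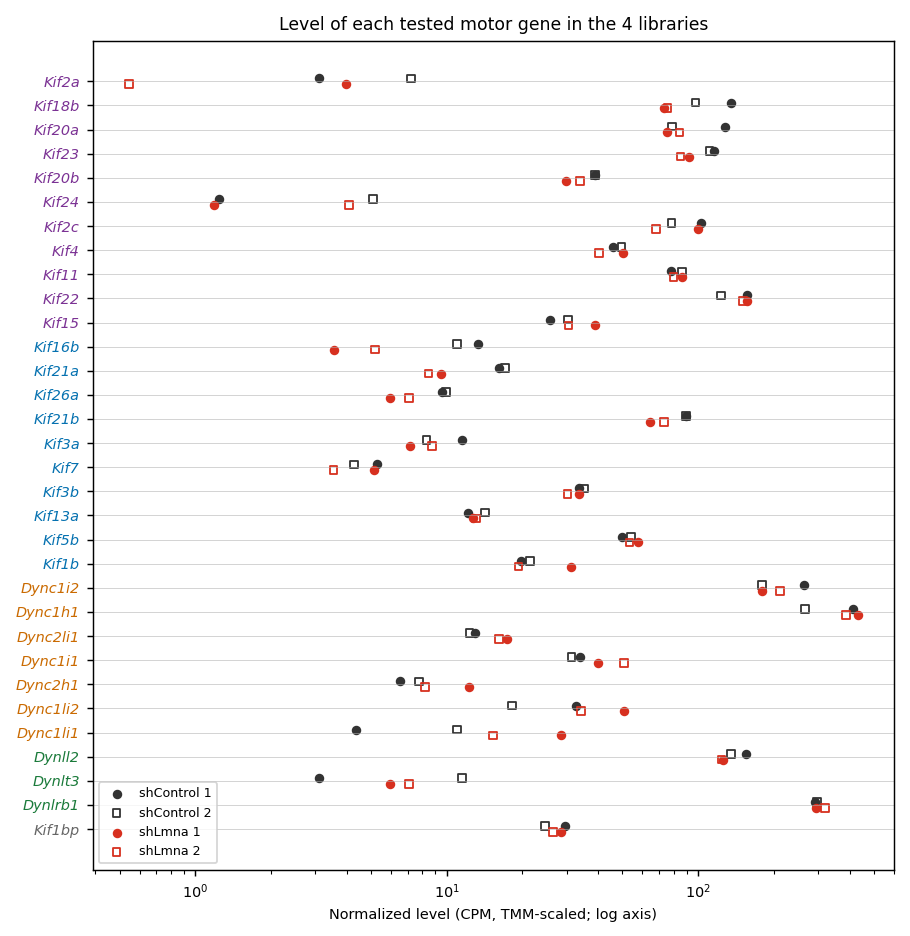
Level of the 32 tested members in each of the 4 libraries, in TMM-scaled CPM on a log axis, with shControl in black and shLmna in red, filled circles for replicate 1 and open squares for replicate 2. Gene names are purple for mitotic kinesins, blue for transport and other kinesins, orange for dynein heavy, intermediate and light intermediate chains, green for dynein light chains and grey for the kinesin binding protein gene Kif1bp. The red symbols of Kif16b lie left of the black ones, at 3.56 and 5.18 against 13.3 and 11 CPM, and those of Dync1li1 lie right of them.

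**Figure D2:**
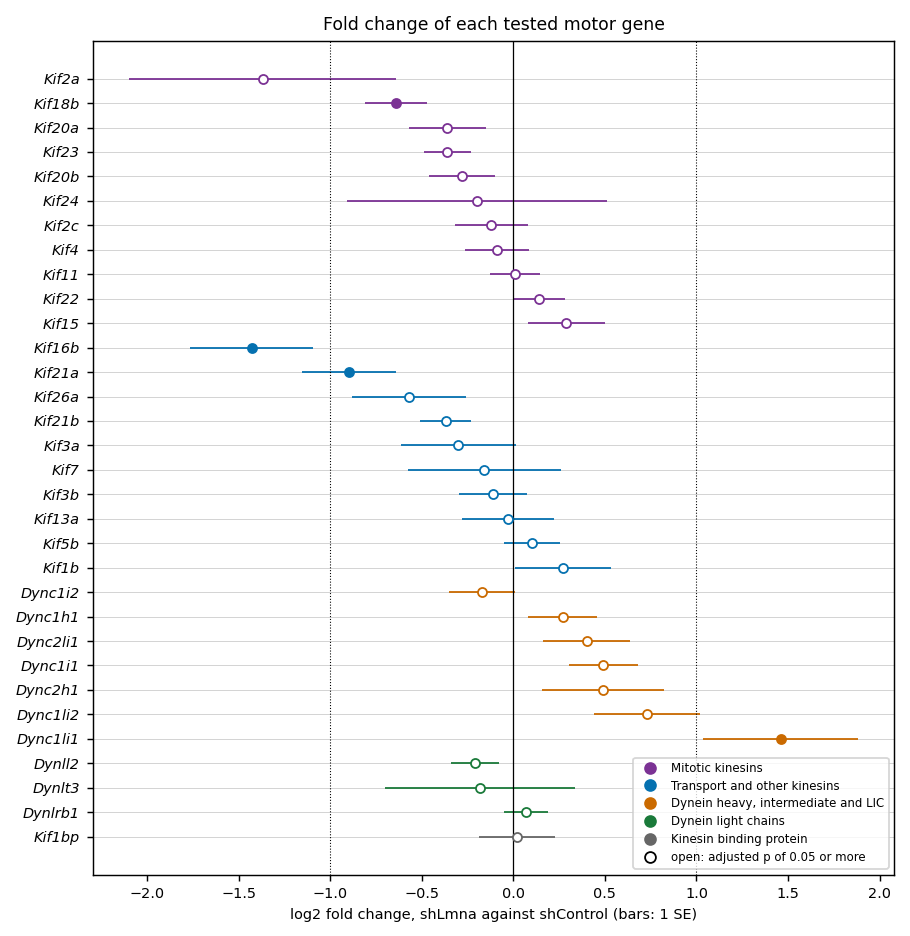
Log2 fold change of each tested member (x axis), shLmna against shControl, with bars of 1 SE, ordered by role and fold change. Filled symbols mark an adjusted edgeR p under 0.05, and dotted lines mark a log2 fold change of 1 in size. Most points lie between the dotted lines, and Kif16b at -1.43 and Dync1li1 at 1.46 are the filled points outside them.

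Promoter sequences are shown for 6 members, since the mitotic and the transport motors differ there in letters that are known from cell cycle genes. The letters TTTGAA, or the rarer TTCGAA, are known as the cell cycle homology region (CHR) of genes that peak in G2 and mitosis, and CCAAT boxes often lie upstream of it. RefSeq promoters of 300 bases (build GRCm38.p6), which run from 250 bases before the annotated start to 50 after it, were found for 25 of the 32 tested members and were searched on both strands. For genes with more than 1 listed promoter the first was used. Printed first are the mitotic kinesins Kif18b (chr11:102925075-102925374, minus strand), Kif23 (chr9:61946750-61947049, minus strand) and Kif11 (chr19:37376132-37376431, plus strand). They are followed by the other genes that passed the adjusted test, Kif16b (chr2:142901415-142901714, minus strand), Kif21a (chr15:91049902-91050201, minus strand) and Dync1li1 (chr9:114688581-114688880, plus strand). Sequences run 5′ to 3′ on the strand of the gene, and capitals mark the CHR letters and the CCAAT box on either strand.
Kif18b: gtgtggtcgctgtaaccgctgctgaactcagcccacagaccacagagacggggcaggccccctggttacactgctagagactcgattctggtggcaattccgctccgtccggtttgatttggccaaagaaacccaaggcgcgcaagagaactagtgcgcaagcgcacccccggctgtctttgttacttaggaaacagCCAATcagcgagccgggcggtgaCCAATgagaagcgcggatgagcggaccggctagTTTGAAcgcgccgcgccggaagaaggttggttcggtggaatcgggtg
Kif23: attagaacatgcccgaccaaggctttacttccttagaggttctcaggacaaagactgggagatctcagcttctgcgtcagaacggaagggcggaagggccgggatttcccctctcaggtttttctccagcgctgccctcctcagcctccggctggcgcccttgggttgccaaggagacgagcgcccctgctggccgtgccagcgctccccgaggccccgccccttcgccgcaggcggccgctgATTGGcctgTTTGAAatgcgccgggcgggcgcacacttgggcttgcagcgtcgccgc
Kif11: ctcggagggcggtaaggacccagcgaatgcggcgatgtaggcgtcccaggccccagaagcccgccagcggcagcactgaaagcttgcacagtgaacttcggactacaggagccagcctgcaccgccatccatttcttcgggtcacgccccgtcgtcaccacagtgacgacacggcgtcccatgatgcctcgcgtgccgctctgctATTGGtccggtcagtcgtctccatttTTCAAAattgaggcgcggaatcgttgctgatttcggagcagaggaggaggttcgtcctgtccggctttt
Kif16b: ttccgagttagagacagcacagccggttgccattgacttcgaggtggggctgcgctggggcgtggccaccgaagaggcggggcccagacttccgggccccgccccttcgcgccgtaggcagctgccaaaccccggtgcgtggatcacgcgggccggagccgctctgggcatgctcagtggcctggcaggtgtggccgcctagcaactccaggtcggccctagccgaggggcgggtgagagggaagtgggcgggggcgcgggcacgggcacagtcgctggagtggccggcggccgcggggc
Kif21a: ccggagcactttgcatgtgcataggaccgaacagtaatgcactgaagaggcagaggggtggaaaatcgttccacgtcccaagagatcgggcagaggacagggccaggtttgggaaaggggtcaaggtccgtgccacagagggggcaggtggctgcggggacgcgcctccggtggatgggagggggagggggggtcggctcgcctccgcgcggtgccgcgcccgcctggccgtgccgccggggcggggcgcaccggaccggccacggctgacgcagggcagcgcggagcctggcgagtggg
Dync1li1: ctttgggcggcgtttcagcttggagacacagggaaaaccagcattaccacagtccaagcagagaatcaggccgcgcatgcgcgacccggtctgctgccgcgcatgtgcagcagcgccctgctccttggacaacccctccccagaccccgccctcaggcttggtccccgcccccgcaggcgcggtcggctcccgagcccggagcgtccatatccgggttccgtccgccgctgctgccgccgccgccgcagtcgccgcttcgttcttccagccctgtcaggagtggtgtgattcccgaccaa

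In Kif18b a TTTGAA begins 3 bases after the start, with CCAAT 53 and 30 bases before it. In Kif23 a TTTGAA begins 2 bases after the start and a reversed CCAAT 7 bases before it. In Kif11 a reversed TTTGAA begins 19 bases before the start, and a reversed CCAAT 45 bases before. None of these letters was found in the windows of Kif16b, Kif21a and Dync1li1. Of the 10 tested mitotic kinesins with a promoter, 9 held TTTGAA or TTCGAA (90%), beside 19.4% of all 27025 promoters, and 6 held CCAAT as well (60%), beside 7.70% of all. Kif2a was the exception, and Kif20a, also a tested mitotic kinesin, is not among the 10. Of the 15 other tested members with a promoter, 0 held TTTGAA or TTCGAA, and 4 held CCAAT (26.7%, beside 37.9% of all). These matches are descriptions of letters, and factor binding was not measured.

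The mitotic kinesins come first, since the study also followed the growth of these cells. Of the 14 genes on the list, 11 were tested and 1, Kif18b, passed the adjusted test. That is 9.09%, beside 15.2% of all tested genes in either direction and 9.74% lower. Their fold changes had a median of -0.20, and 8 were negative and 3 positive. Summed over the list, the level was 832 and 708 CPM in shControl and 711 and 655 CPM in shLmna, so the groups overlapped.

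Kif18b, a kinesin that shortens astral microtubules, stood at 135 and 97.7 CPM in shControl and at 73.2 and 75.5 CPM in shLmna. Both shLmna libraries were below both shControl libraries, and the shControl libraries differed more from each other than the shLmna libraries did. The means were 116 ± 26.4 and 74.3 ± 1.63 CPM (SD, n = 2), which is a fold change of -0.64 on the log2 scale (SE 0.168) with an adjusted edgeR p of 0.0297. Its 16 exons span bases 102905529 to 102925124 of chromosome 11 on the minus strand (GRCm38, GENCODE release M21). The change was -0.39 without shControl 1 (adjusted edgeR p 0.0807), and without shControl 2 it was -0.86. Without shLmna 1 the adjusted edgeR p was 0.172 and without shLmna 2 it was 0.191, at -0.62 and -0.66. With DESeq2 the adjusted p was 0.0683.

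Kif23 and Kif20a act in the central spindle and in cytokinesis. Kif23, the motor of the centralspindlin complex, stood at 116 and 111 CPM in shControl and at 92.2 and 85.0 CPM in shLmna. The libraries did not overlap, but the log2 fold change of -0.36 (SE 0.128) had an adjusted edgeR p of 0.0893. It passed with a GC correction and a replicate block together (0.0310) and in the batch-corrected values. In these settings 21.5% and 36.2% of all genes passed, beside 15.2% in the main test. Kif20a, which brings the chromosomal passenger complex to the spindle midzone, stood at 128 and 78.7 CPM in shControl and at 75.5 and 84.2 CPM in shLmna. Here the groups overlapped, with shControl 1 apart from the other libraries, and the log2 fold change of -0.36 (adjusted edgeR p 0.284) became 0.03 without shControl 1 and -0.67 without shControl 2 (adjusted edgeR p 0.00272). Its annotated 3′ end overlaps that of Cdc23 on the opposite strand, where 97.8% of its 31-base stretches occur, and the counting is not stated to use strand. Kif20b, a further motor of cytokinesis, stood at 38.7 and 38.8 CPM in shControl and at 29.7 and 33.8 CPM in shLmna, a log2 fold change of -0.28 (adjusted edgeR p 0.333).

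Neither of the motors that build the bipolar spindle passed the test. Kif11, the bipolar Eg5 motor that pushes spindle poles apart, stood at 78.1 and 86.2 CPM in shControl and at 86.6 and 79.8 CPM in shLmna. The groups overlapped, with a log2 fold change of 0.01 (SE 0.137, adjusted edgeR p 0.960). Kif15, which can act beside Kif11, had one of 0.29 (SE 0.209, adjusted edgeR p 0.383), and both shLmna libraries, at 38.8 and 30.5 CPM, were above both shControl libraries, at 25.7 and 30.3 CPM. Of the chromosome motors, Kif22 (0.14) and Kif4 (-0.09) overlapped between groups, as did the centromere depolymerase Kif2c (-0.12). The last 1000 bases of Kif2c share 16.7% of their 31-base stretches with pseudogenes, which makes its level uncertain. Kif24, a centriolar kinesin, had between 3 and 19 counts, with a log2 fold change of -0.20 that turned to 1.16 without shControl 2.

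Kif2a, a depolymerase of spindle poles and axons that stands on both kinesin lists, had counts of 10 and 27 in shControl and of 10 and 2 in shLmna. The groups overlapped, and the log2 fold change of -1.37 (SE 0.729, adjusted edgeR p 0.242) became -3.17 without shLmna 1, -0.38 without shLmna 2, -0.62 without shControl 2, -0.04 with a GC correction and -1.84 without shControl 1 (adjusted edgeR p 0.0305). The whole of its last 1000 bases overlaps Dimt1 on the opposite strand, so counts of both genes may be mixed. Kif14, a motor of cytokinesis, had 4 counts in each shControl library and 8 and 9 in shLmna and was under the filter. It was named after its values were seen, since it passed in the batch-corrected values.

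Transport motors and the remaining kinesins made up a list of 24 members, 11 of them tested. With Kif2a left out, 10 were tested, and 2 of these passed the adjusted test, both lower. That is 20%, beside 15.2% of all tested genes in either direction and 9.74% lower. Fold changes on this list ranged from -1.43 to 0.27 with a median of -0.23. A further 6 genes of this list had no count in any library.

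Kif16b, the kinesin-3 motor that carries early endosomes towards the plus ends of microtubules, showed the lowest fold change of the members. It had counts of 43 and 41 in shControl and of 9 and 19 in shLmna, which is 13.3 and 11 against 3.56 and 5.18 CPM. Both shLmna libraries lay well under both shControl libraries. The means were 12.1 ± 1.66 and 4.37 ± 1.14 CPM (SD, n = 2), and the log2 fold change was -1.43 (SE 0.337, adjusted edgeR p 0.0195), a 2.70-fold fall. The gene has 26 exons at bases 142617474 to 142901531 of chromosome 2 on the minus strand, and its last 1000 transcript bases lie in 1 exon and hold 0 coding bases. No 31-base stretch of that window occurs in another annotated gene. The fold change stayed between -1.74 and -1.22 when 1 library was left out, but the adjusted edgeR p was 0.140 without shLmna 1 and 0.0880 without shLmna 2. With DESeq2 it was 0.198. Kif16bos, the antisense neighbour of Kif16b, had no count in shControl and 3 and 1 in shLmna, which is too low a level to compare.

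Kif21a and Kif21b are kinesin-4 motors that limit microtubule growth. Kif21a stood at 16.1 and 17.1 CPM in shControl and at 9.49 and 8.45 CPM in shLmna. The libraries of each group lay close together and the groups were apart. The log2 fold change was -0.90 (SE 0.257, adjusted edgeR p 0.0428) for 37 exons at bases 90933276 to 91049948 of chromosome 15. The GC content of its last 1000 transcript bases was 31.7%, and with a GC correction the log2 fold change turned to 0.55 (adjusted edgeR p 0.215). Without shControl 2, shLmna 1 or shLmna 2 the adjusted edgeR p was 0.103, 0.138 and 0.214, and with DESeq2 0.410. Kif21b stood at 89.2 CPM in both shControl libraries and at 64.5 and 73.3 CPM in shLmna. It did not pass, with a log2 fold change of -0.37 (SE 0.138, adjusted edgeR p 0.106).

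Kif5b, the heavy chain of conventional kinesin 1, stood at 49.6 and 54.1 CPM in shControl and at 57.7 and 53.4 CPM in shLmna. The groups overlapped, and the log2 fold change was 0.10 (SE 0.152, adjusted edgeR p 0.718). Its last 1000 bases had the lowest GC content of the tested members, 30.1%, and a GC correction moved it to 1.90 (adjusted edgeR p 0.000208). Its paralogues Kif5a and Kif5c had at most 2 counts in a library. Kif1b, which carries mitochondria and synaptic vesicle precursors, stood at 19.8 and 21.4 CPM in shControl and at 31.2 and 19.3 CPM in shLmna, an overlap in which shLmna 1 was apart. Its log2 fold change was 0.27 (adjusted edgeR p 0.530) and turned to -0.09 without shLmna 1.

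The kinesin-2 motor, a heterotrimer for transport in cilia and along melanosome tracks, was represented by Kif3a (-0.30) and Kif3b (-0.11), both overlapping between groups, while Kif3c had at most 2 counts. Kif13a, a motor for endosomes and melanosome cargo, stood at 12.1 and 14.2 CPM in shControl and at 12.7 and 13.1 CPM in shLmna, a log2 fold change of -0.03. Kif7, a ciliary regulator of Hedgehog signalling, had one of -0.16. Kif26a, an atypical kinesin, stood at 9.60 and 9.91 CPM in shControl and at 5.93 and 7.08 CPM in shLmna, and with a log2 fold change of -0.57 it had an adjusted edgeR p of 0.252. Kif1bp, a binding partner of kinesins that the symbol rule also takes in and that is no motor, had a log2 fold change of 0.02.

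Dynein chain genes mostly had positive fold changes, and most did not pass the test. Of 7 tested genes for heavy, intermediate and light intermediate chains, 6 had a positive fold change, with a median of 0.49 over the 7. The 1 that passed the adjusted test was Dync1li1. That is 14.3%, beside 15.2% of all tested genes in either direction and 5.48% higher. In 5 of the 7 both shLmna libraries were above both shControl libraries (71.4%, beside 29.5% of all tested genes). The shControl 2 library was the lowest of the 4 for Dync1h1, Dync1i1, Dync1i2, Dync1li2 and Dync2li1, with Dync1i2 only just under shLmna 1. Summed over the list, the level was 767 and 526 CPM in shControl and 761 and 724 CPM in shLmna, so the groups overlapped and shControl 2 was apart.

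Dync1li1 and Dync1li2 encode the light intermediate chains, which link dynein 1 to its cargo adaptors. Dync1li1 had counts of 14 and 41 in shControl and of 72 and 56 in shLmna, which is 4.34 and 11 against 28.5 and 15.3 CPM. Both shLmna libraries were above both shControl libraries, with a wide spread inside each group. The means were 7.66 ± 4.70 and 21.9 ± 9.35 CPM (SD, n = 2), and the log2 fold change was 1.46 (SE 0.422, adjusted edgeR p 0.0448), a 2.74-fold rise. The gene has 13 exons at bases 114688790 to 114724302 of chromosome 9 on the plus strand, and 8.87% of the 31-base stretches in its last 1000 bases are shared with other genes. Its fold change was 0.96 without shControl 1, 2.28 without shControl 2, 0.98 without shLmna 1 (adjusted edgeR p 0.309) and 1.89 without shLmna 2 (0.0672). The adjusted p was 0.0998 with DESeq2 and 0.0519 with a GC correction, and with limma on the batch-corrected values it was 0.0727, at 0.30.

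Dync1li2 stood at 32.8 and 18.2 CPM in shControl and at 50.6 and 34.1 CPM in shLmna. The groups did not overlap, although shControl 1 and shLmna 2 were close. Its log2 fold change of 0.73 (SE 0.292) had an adjusted edgeR p of 0.128, which became 0.000412 without shControl 1, at 1.20, and 0.403 without shControl 2, at 0.34. Without shLmna 1 the log2 fold change was 0.43. Dync1li2 passed with the replicate block (0.00491), with no filter on low counts (0.00951) and in the batch-corrected values (0.0102). In these settings 22.6%, 15.0% and 36.2% of all genes passed.

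Dync1h1, the heavy chain that holds the motor domain, stood at 413 and 266 CPM in shControl and at 432 and 388 CPM in shLmna, so that shControl 2 alone was low. The log2 fold change of 0.27 (SE 0.188, adjusted edgeR p 0.368) was 0.62 without shControl 1 (adjusted edgeR p 0.00133) and -0.01 without shControl 2. Of the intermediate chains, which bind dynactin, Dync1i2 stood at 264 and 179 CPM in shControl and at 180 and 211 CPM in shLmna. The groups overlapped, with a log2 fold change of -0.17 (adjusted edgeR p 0.563), which was -0.43 without shControl 2 (adjusted edgeR p 0.0486) and 0.13 without shControl 1. Dync1i1 stood at 33.8 and 31.3 CPM in shControl and at 39.9 and 50.7 CPM in shLmna, with a log2 fold change of 0.49 (SE 0.188, adjusted edgeR p 0.113). Dynein 2, the motor of transport inside cilia, was measured at Dync2h1 (0.49, adjusted edgeR p 0.364) and Dync2li1 (0.40, adjusted edgeR p 0.301). Dync2h1 went from 21 and 29 counts to 31 and 30.

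The dynein light chains were measured for 9 genes, of which 3 were tested. Of these, 0 passed the edgeR adjusted test, beside 15.2% of all tested genes. An unadjusted edgeR p under 0.05 was found for 0, beside 30.1% of all. In 1 of the 3, Dynll2, the libraries of both groups did not overlap (33.3%, beside 60.1% of all tested genes). Dynll2 stood at 155 and 135 CPM in shControl and at 126 and 124 CPM in shLmna, a log2 fold change of -0.21 (SE 0.129, adjusted edgeR p 0.30). Dynlrb1, the roadblock chain, stood at 292 and 296 CPM in shControl and at 295 and 320 CPM in shLmna, a log2 fold change of 0.07 (SE 0.120). Dynlt3, of the Tctex family, had counts of 10 and 43 in shControl and of 15 and 26 in shLmna, with a log2 fold change of -0.18 that turned to 1.07 without shControl 2. Dynll1, the LC8 chain, had counts of 17 and 8 in shControl and of 5 and 10 in shLmna and was under the filter. Dynlt1a, Dynlt1b and Dynlt1f had at most 4 counts and Dynlt1c none. These near-identical copies share 57.7% to 96.8% of the 31-base stretches of their 3′ ends with other genes, so counts could be lost or split among them.

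The members with no count were Dynlrb2, Dynlt1c, Kif1a, Kif2b, Kif5c, Kif12, Kif13b, Kif17, Kif19a and the pseudogene Kif4-ps. A count of 0 allows up to 3 counts, or 0.788 to 1.20 CPM by library, and covers counting error only. The remaining members under the filter were Kif1c, Kif3c, Kif5a, Kif6, Kif9, Kif18a, Kif26b and Kif27, none with over 8 counts in a library. Differences in these genes were not detectable at this depth.

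GC content of the counted 3′ end went with the fold change across all tested genes, and it was therefore set beside the members' values. Of 333 tested genes at or under a GC content of 34%, 50.2% were lower at an adjusted p under 0.05, and their median log2 fold change was -1.26. Only 3 members fell in that range, Kif5b, Kif21a and Kif2a. Of 2273 genes between 34% and 42%, 14.7% were lower and 9.02% higher, with a median log2 fold change of 0.01. That range held 9 tested members, Kif16b among them. Of 3149 genes between 42% and 50%, 4.86% were lower, and 14 of the 32 tested members lay there. Of 3344 genes over 50%, 6.88% were lower, and 6 tested members lay there. The median GC content was 44.1% in the tested members and 46.9% in all tested genes. For Kif16b it was 39.7%, for Dync1li1 42.1% and for Kif18b 48.3%. With the GC correction Kif16b (-1.38) and Kif18b (-0.68) passed the adjusted test as before. Kif21a (0.55) and Dync1li1 (1.40, adjusted edgeR p 0.0519) no longer passed, while Kif5b (1.90) did. Over all tested genes 77% of the calls by the 3 limits were lower, and with the correction 53.5% were. The part of GC content in the members' changes was not tested otherwise.

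**Figure D3:**
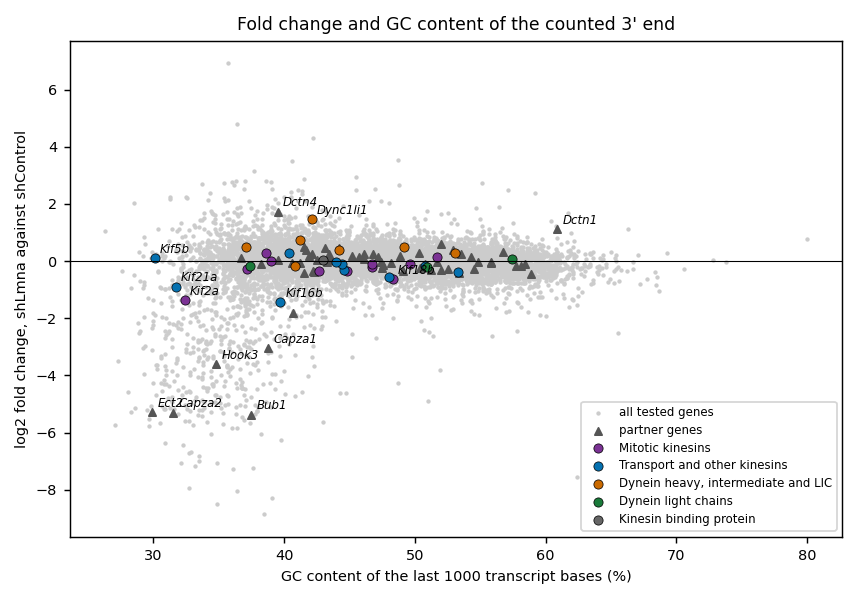
GC content of the last 1000 transcript bases (x axis, percent) and log2 fold change of shLmna against shControl (y axis) for all tested genes (grey dots), partner genes (triangles) and tested members (coloured circles, by role). Genes far below 0 are frequent at a GC content under 40%, where Ect2, Capza2, Bub1 and Hook3 lie, while Kif5b, at 30.1%, lies at 0.10.

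**Figure D4:**
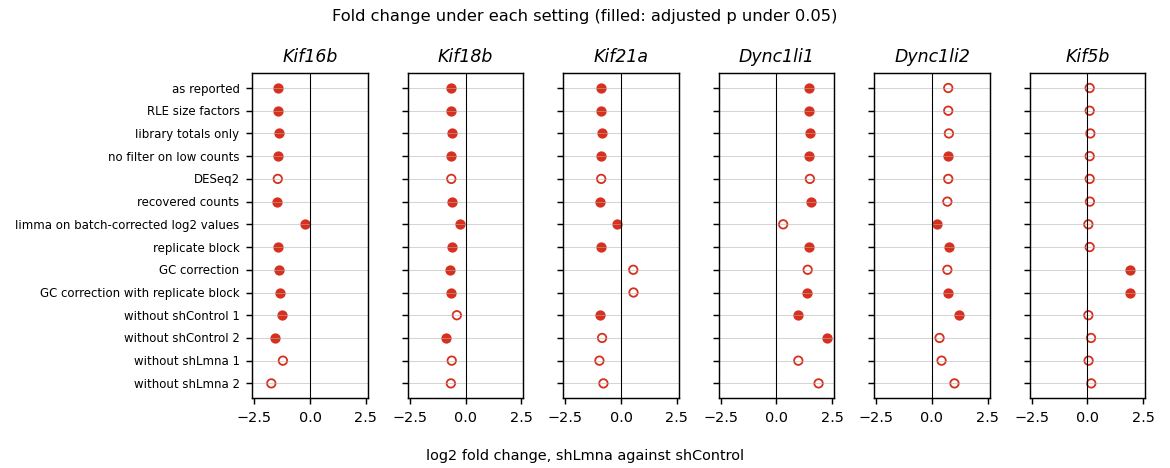
Log2 fold change (x axis) of 6 members as reported and under each other setting (y axis), with filled symbols for an adjusted p under 0.05. Kif16b and Kif18b are below 0 throughout, Kif21a turns to 0.55 with the GC correction, and Kif5b moves to 1.90 with it.

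Partners of the motors were counted on 4 lists, of which 59 genes were tested, 7 were lower and 3 higher at an adjusted edgeR p under 0.05. That is 16.9% beside 15.2% of all tested genes.

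Dynactin, the complex that activates dynein, held 5 of the 10. All 12 of its listed genes were tested, with 3 lower and 2 higher (41.7%, beside 15.2% of all tested genes). Dctn4 went from 3.41 and 2.95 to 10.3 and 10.9 CPM, a log2 fold change of 1.73 (SE 0.354, adjusted edgeR p 0.00995). Dctn1, the p150Glued subunit that binds microtubules, went from 8.36 and 8.03 to 15.8 and 19.6 CPM, a log2 fold change of 1.12 (adjusted edgeR p 0.0194). In both genes the groups were well apart. The capping protein genes Capza1 (-3.05) and Capza2 (-5.31) were lower, and these proteins also cap actin filaments. Capza2 had counts of 89 and 378 in shControl and of 2 and 8 in shLmna, and its fold change ranged from -6.27 without shLmna 2 to -4.08 without shControl 2, and was -3.74 with the GC correction at a GC content of 31.5%. Capza1 had counts of 196 and 215 in shControl and of 36 and 6 in shLmna, so that it was -5.14 without shLmna 1 and -2.04 without shLmna 2, and another gene holds 66.3% of its 31-base stretches there. Actr1a, the Arp1 filament subunit, had a log2 fold change of -0.41 (adjusted edgeR p 0.0455). With DESeq2 the adjusted p was over 0.05 for Capza1 (0.169), Dctn4 (0.128), Dctn1 (0.210) and Actr1a (0.0989). Without shLmna 1 or shLmna 2 it was 0.0770 and 0.132 for Dctn4, 0.0552 and 0.183 for Dctn1, and 0.179 and 0.286 for Actr1a, and for Actr1a it was 0.0534 without shControl 1, 0.0628 with library totals, 0.0655 with recovered counts and 0.0545 with the GC correction.

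Of 12 tested dynein adaptors and regulators, 1 passed (8.33%, beside 15.2% of all tested genes). Hook3, an adaptor of dynein on endosomes and the Golgi, had 27 and 31 counts in shControl and 2 in each shLmna library. The summed counts give a ratio of 12.9, with a 95% interval of 4.78 to 49.0 for counting error only. The log2 fold change was -3.61 (adjusted edgeR p 0.00149), and -2.83 with the GC correction. Of 15 tested kinesin light chains, cargo adaptors and other kinesins, 1 passed (6.67%). Trak2, an adaptor for mitochondria, was higher at 0.48 (adjusted edgeR p 0.0438). It was over 0.05 without shLmna 1 (0.0974), without shLmna 2 (0.283), with the GC correction (0.0545) and with DESeq2 (0.181).

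Of the 20 mitotic partners, 3 were lower (15%, beside 15.2% of all tested genes in either direction and 9.74% lower). Ect2, the exchange factor that binds centralspindlin, had 148 and 218 counts in shControl and 4 in each shLmna library, a log2 fold change of -5.29 (SE 0.330, adjusted edgeR p 1.08e-05). Its binding partners in that complex were at other values, Kif23 at -0.36 as above and Racgap1 at 0.06 (adjusted edgeR p 0.780). Bub1, a spindle checkpoint kinase, had counts of 62 and 88 in shControl and of 0 and 3 in shLmna, a ratio of 44.5 with a 95% interval of 14.9 to 218 for counting error only. Its log2 fold change was -5.37 (adjusted edgeR p 0.000159), which depends on the prior count, and without shLmna 2 no fold is given, since the other shLmna library has a count of 0. The GC content of the last 1000 bases was 29.9% in Ect2, whose log2 fold change was -3.48 with the GC correction. Nusap1, a spindle microtubule binder, had counts of 133 and 173 in shControl and of 9 and 73 in shLmna. The log2 fold change of -1.80 (adjusted edgeR p 0.0274) was -3.59 without shLmna 2 and -1.13 without shLmna 1. With DESeq2 its adjusted p was 0.379. Of the chromosomal passenger complex, Aurkb (-0.03), Cdca8 (-0.03) and Birc5 (0.04) overlapped between groups. Incenp, the scaffold of that complex, stood at 111 and 100 CPM in shControl and at 89.4 and 80.1 CPM in shLmna, so that the groups were apart, with a log2 fold change of -0.32 (unadjusted p 0.0404, adjusted edgeR p 0.145). Plk1, a mitotic kinase, was at -0.04. Racgap1, Aurkb, Cdca8, Birc5, Incenp and Plk1 did not pass the test and were named after their values were seen.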

How the data were processed

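RNA of 2 shControl and 2 shLmna libraries was profiled by bulk MARS-seq. By the methods of the study, reads were trimmed with Cutadapt, aligned to mm10 with STAR (2.4.2a) and counted with HTSeq over the last 1000 bases of RefSeq genes and 100 bases downstream. The authors deposited raw counts per gene, used in every main test, a signal per gene (counts divided by a DESeq2 size factor) with p-values of their own comparison, which were not used, and batch-corrected log2 values. The batches are not named. In each library 100% of the deposited signal values were whole multiples of 1 step (within 0.01 reads) and gave recovered counts. The study marked duplicate reads and then counted UMIs with a modified HTSeq, but which of the deposited tables hold these UMI counts is not stated. Over the genes of the signal table, the raw counts summed to 1.0767 to 1.0878 times the recovered counts by library. In each library 0 genes were lower in the raw counts, so the raw counts and the signal rest on different counts. The cause was not tested.

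Counts were filtered with filterByExpr, scaled by TMM and tested in edgeR 4.0.16 (R 4.3.3) with group as the one term. SE is the fold change over the root of F. Alternatives were RLE factors, library totals, no filter, DESeq2 1.42.0, recovered counts, limma 3.58.1 on the log2 values, a replicate block, a GC correction (loess of log2 CPM on 3′ GC content per library, span 0.3, as an offset), and each library left out. The fit was tested on simulated data. GC content, positions and shared 31-base stretches came from GENCODE M21 (GRCm38), from 1 transcript per gene, preferring RefSeq-linked, coding and long ones, which may differ from the transcripts the authors counted. Members and lists were chosen with earlier results of these data known. All members were accounted for, with values by library for those past the adjusted test and for 12 fixed members. Partners were named at an adjusted p under 0.05.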

Additional observations from a re-analysis of the deposited data

How the results depend on the processing

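Direction and side of the threshold were the same in 350 of 387 comparisons of a gene's fold change with another setting, and in 131 of 172 with 1 library left out. The genes compared were Lmna, the 32 tested members and the partners that passed the adjusted test. Only 4 of these members had passed, so for most members the same side means that they again did not pass. With DESeq2 0 of these 4 passed. Leaving out a library leaves 1 sample in its group, which is assumed to vary like the other group. Lmna passed in all settings, from -2.74 to -2.45 with 1 library left out. Member counts of 3 lower and 1 higher became 0 and 0 with DESeq2, 7 and 3 with limma on the batch-corrected log2 values, and ranged from 0 to 4 and from 0 to 3 with 1 library left out, with 0 without either shLmna library. The share of all genes passing also moved, from 15.2% to 7.95% with DESeq2, 36.2% with limma, 22.6% with the replicate block, 21.8% without shControl 1, 14.8% without shControl 2, 5.75% without shLmna 1 and 5.28% without shLmna 2. Members higher numbered 2 with no filter, 2 with the replicate block and 3 with the GC correction and block together. By the 3 limits of the study, the 1 lower and 1 higher member became 0 and 0 with DESeq2 and with limma. Fold changes were smaller with limma, at -0.23 for Kif16b and 0.3 for Dync1li1. With DESeq2 they were -1.45 and 1.5, and the adjusted DESeq2 p of 0.198 and 0.0998 was over the limit. The higher member became 2 with the GC correction and block, and with 1 library left out these counts ranged from 0 to 2 and from 0 to 1. Partner counts of 7 lower and 3 higher became 4 and 0 with DESeq2 and 14 and 11 with limma. Partners higher numbered 6 with no filter, 7 with the replicate block and 5 with the GC correction and block, and with 1 library left out the counts ranged from 6 to 8 and from 0 to 5. The cause was not tested.

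The GC correction turned the fold change of Kif21a to 0.55 (0.56 with the block), Kif20b to 0.06 (0.07), Dynlt3 to 0.16 (0.24) and Kif1bp to -0.05 (-0.04), and recovered counts turned Kif13a to 0.02. With 1 library left out the range crossed 0 for Dync1h1 (-0.01 to 0.62), Dync1i2 (-0.43 to 0.13), Dynlt3 (-0.80 to 1.07), Kif11 (-0.05 to 0.09), Kif13a (-0.14 to 0.09), Kif1b (-0.09 to 0.61), Kif1bp (-0.11 to 0.15), Kif20a (-0.67 to 0.03), Kif22 (-0.02 to 0.33), Kif24 (-1.39 to 1.16), Kif2c (-0.41 to 0.15), Kif4 (-0.24 to 0.09) and Kif7 (-0.42 to 0.12).

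Same-numbered libraries are not stated to share a culture or batch, and their deviations from the group means correlated at 0.0129 across genes, so the replicate block pairs them by number alone. With it, 1220 genes were lower and 852 higher at an adjusted p under 0.05, beside 891 and 501. DESeq2, whose own filter left 10184 genes with an adjusted p, gave 592 and 218.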
